A study of Mus musculus with 24 samples.

Results

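The genes described here belong to the tripartite motif (TRIM) family, and they were taken by name alone: every gene whose symbol in the array's probe table begins with TRIM and a number. This gave 61 genes of the 14884 named on the array, each read from the probe set with the highest mean over all arrays. TRIM proteins carry a RING domain, B-box domains and a coiled coil, and most of them act as ubiquitin ligases. Part of the family is induced by interferon and acts against viruses or within the signalling that detects viral RNA and DNA. Other members work as chromatin cofactors, at the centrosome, in muscle or in the turnover of damaged organelles. TRIM22 is a well-known interferon-induced member.

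The samples were subcutaneous tumours of MM.1S, a human multiple myeloma cell line, grown with Matrigel in CB17-SCID mice, which lack mature T and B cells. There were 8 groups of 3 arrays each: Control, Filanesib, Dexamethasone, Pomalidomide, Filanesib-Dexamethasone, Filanesib-Pomalidomide, Pomalidomide-Dexamethasone and the triple combination Filanesib-Pomalidomide-Dexamethasone. Doses were 10 mg/kg filanesib, an inhibitor of the mitotic kinesin KIF11, 0.5 mg/kg dexamethasone, a glucocorticoid, and 8 mg/kg pomalidomide, which redirects the cereblon ubiquitin ligase, all given intraperitoneally for 2 days. Control mice received the vehicle, phosphate-buffered saline. The labels do not state that each array is a separate animal, so p-values measure only the spread between these samples. As organism the labels give the mouse, while the probes are named for human genes. Among the TRIM genes, 50 share their symbol with a mouse gene and 11 do not, TRIM22 among the latter, and mouse RNA that binds these probes cannot be told apart from tumour RNA.

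The arrays were alike in level, with medians between 3.65 and 3.73 on the log2 scale. The 3 Pomalidomide arrays stood apart in spread: over the TRIM genes, the SD of an array's deviations from its group means was 0.182 to 0.252 in these and 0.10 to 0.166 in the other 21. The main results that rest on Pomalidomide alone are given again with each of its arrays left out in turn. Some are also given without its replicates 1 and 3. That leaves 1 Pomalidomide array, replicate 2, whose own SD of 0.182 was above that of every array outside the group, and its SE and p-value then take the spread from the other groups. Plasma cell markers had high values (SDC1, the surface marker of plasma cells, had a mean log2 level of 10.07), and the mean of 6 such markers lay between 9.92 and 10.28 on every array. With pomalidomide IRF4, the plasma cell transcription factor, fell by 0.54 ± 0.11 and CD38 rose by 0.18 ± 0.05 (log2, adjusted p = 0.0056 and 0.0304), and the other 4 of these markers did not pass. In these bulk tumours, fewer cells of a type and less RNA per cell cannot be told apart. The TRIM genes' own levels covered a wide range. Of the 61, 29 had a mean log2 level of at least 5 and 19 had one under 4. A low signal cannot be told from background, because the deposited values hold no detection call. This concerns the genes under 4 most, but TRIM22 (4.3), TRIM5 (4.29), TRIM16 (4.42) and TRIM32 (4.74) were also under 5.

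Pomalidomide raised a pair of interferon-linked TRIM genes. Averaged over the 4 backgrounds that the other drugs form (12 arrays with pomalidomide against 12 without), TRIM22 and TRIM38 rose, and no TRIM gene fell. These 2 of 61 genes (3.28%) stand beside 4.86% of all genes called in the same comparison (limma, adjusted p under 0.05), so the family as a whole was called at about the background rate. Counting higher calls only, the background was 2.21%, and at an unadjusted p under 0.05 there were 11 TRIM genes (18.0%), beside 17.3% of all genes. Over the 61 genes the median log2 difference was 0.01, with a range of -0.25 to 0.35. Averaged over the 3 backgrounds with another drug, TRIM22 (0.34, adjusted p = 0.0194) and TRIM38 (0.41, adjusted p = 0.0219) passed again. They were joined by TRIM8 (0.35, adjusted p = 0.0157). Over all 4 backgrounds TRIM8 did not pass, at 0.17 ± 0.07 (adjusted p = 0.1801), and with pomalidomide alone it was at -0.37. The average over 3 backgrounds was chosen after the data were seen, and its arrays are also part of the average over 4. The differences over 3 backgrounds used no Pomalidomide or Control array. Their SE and p-values still took the spread from all arrays, those of Pomalidomide and Control included. With a single array left for Pomalidomide, replicate 2, there were 4 calls, TRIM22, TRIM25, TRIM38 and TRIM56. The count was also 4 without Filanesib replicate 2, without Pomalidomide replicate 3, or without Filanesib-Pomalidomide replicate 2.

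**Figure D1:**
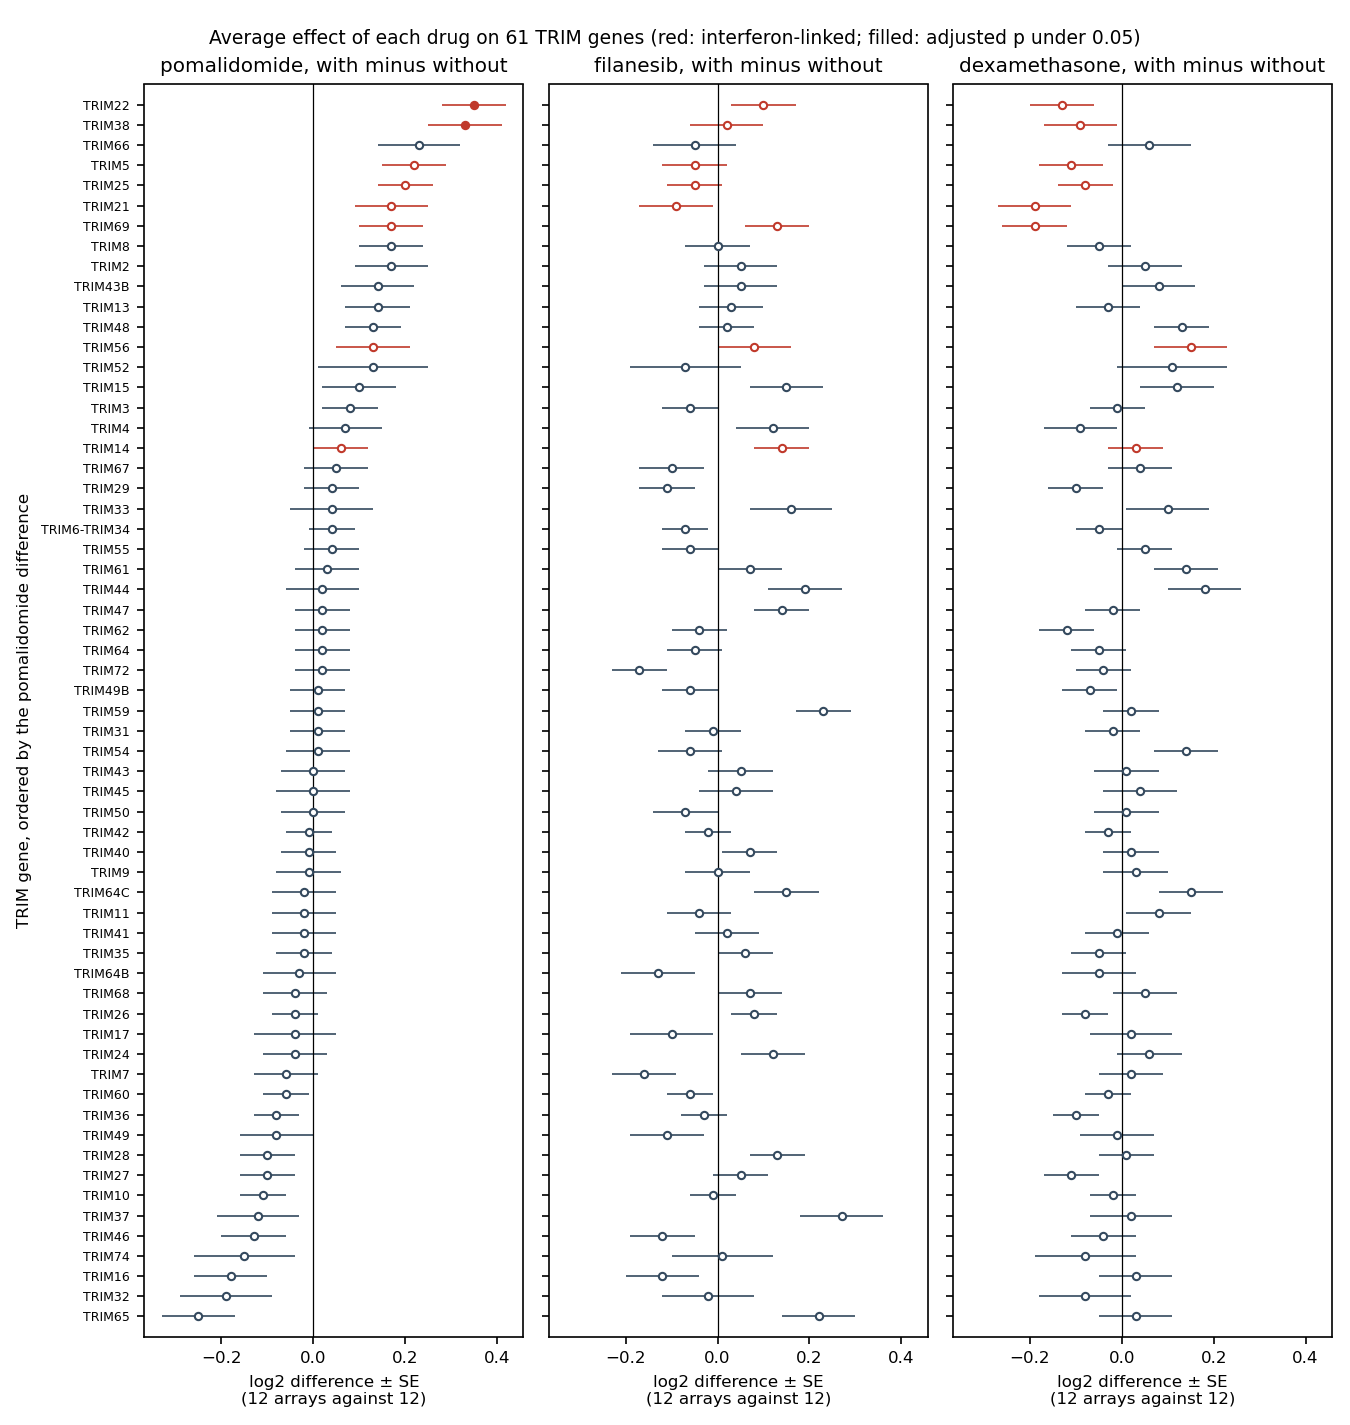
Average effect of each drug on the 61 TRIM genes, 1 panel per drug, with the log2 difference (12 arrays with the drug minus 12 without) on the horizontal axis, bars for the SE and filled points for adjusted p under 0.05. Interferon-linked genes are red, and only TRIM22 (0.35) and TRIM38 (0.33) are filled, both in the pomalidomide panel.

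TRIM22, an antiviral ligase of the nucleus and cytoplasm, had log2 values of 4.05, 4.04 and 4.20 in Control and of 4.38, 4.37 and 4.64 in Pomalidomide. Filanesib-Pomalidomide had the highest values, 4.52, 4.65 and 4.96, against 4.04, 4.18 and 4.35 in Filanesib. These pairs of groups did not overlap. With dexamethasone in the background the values were closer: 4.35, 4.10 and 4.48 in Pomalidomide-Dexamethasone against 3.98, 4.33 and 4.08 in Dexamethasone, which overlapped. The triple combination, at 4.51, 4.48 and 4.23, lay above Filanesib-Dexamethasone, at 3.94, 4.18 and 4.17. Over all arrays with pomalidomide TRIM22 ran from 4.10 to 4.96 with a median of 4.48, and without it from 3.94 to 4.35 with a median of 4.13. Of the 12 arrays with pomalidomide, 10 lay above the highest array without it. The average difference was 0.35 ± 0.07 (log2, SE), a 1.27-fold higher level, with an adjusted p of 0.0030 by limma. The signal of TRIM22 was low, with a mean of 4.3 over all arrays.

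The rise of TRIM22 was not called within any background by itself. Its log2 difference was 0.37 ± 0.14 for pomalidomide alone (adjusted p = 0.1593 by limma), and 0.29 to 0.42 with each Pomalidomide array left out in turn. Beside filanesib it was 0.52 and beside both other drugs 0.32, with adjusted p-values of 0.1105 and 0.6993. Beside dexamethasone it was 0.18 (adjusted p = 0.9977). No difference between backgrounds was detected: the pomalidomide effect was 0.14 ± 0.14 larger with filanesib than without (95% interval -0.14 to 0.42, adjusted p = 0.8881) and changed by -0.20 ± 0.14 with dexamethasone (95% interval -0.48 to 0.09, adjusted p = 0.9219). Against Control, TRIM22 was 0.61 ± 0.14 higher in Filanesib-Pomalidomide (adjusted p = 0.0719) and 0.32 higher in the triple combination (adjusted p = 0.4035). All values of the triple combination lay below those of Filanesib-Pomalidomide, by -0.30 ± 0.14, without reaching the threshold (adjusted p = 0.9989). In the average effects of filanesib (0.10 ± 0.07) and dexamethasone (-0.13 ± 0.07) TRIM22 did not pass either, with adjusted p-values of 0.6133 and 0.6814.

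**Figure D2:**
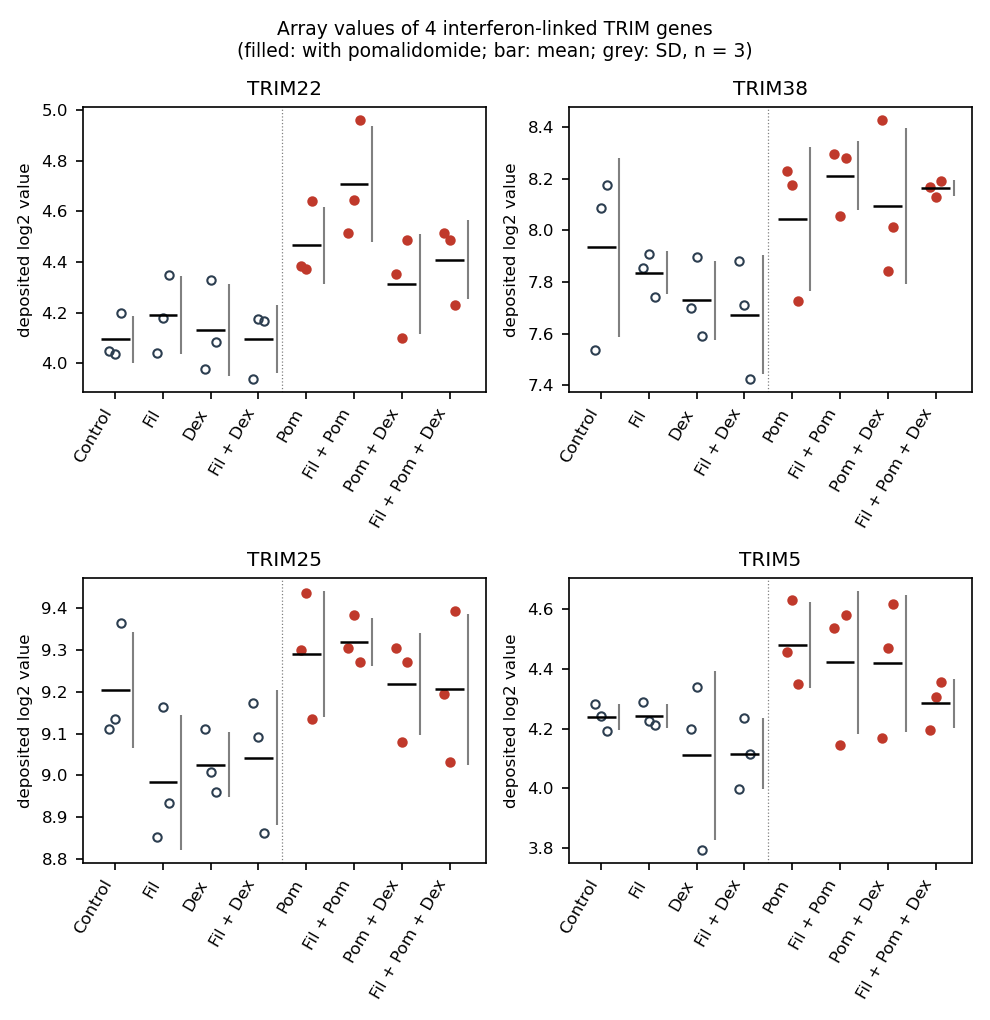
Log2 values of TRIM22, TRIM38, TRIM25 and TRIM5 on each of the 24 arrays, by group, with filled points for groups given pomalidomide, a bar at the mean and grey lines for the SD (n = 3). For TRIM22 the highest arrays are those of Filanesib-Pomalidomide (4.52, 4.65 and 4.96), and 10 of the 12 filled points lie above every open one.

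TRIM38, a ligase that tempers inflammatory and interferon signalling, also rose. Its log2 values with pomalidomide ran from 7.73 to 8.43 with a median of 8.17, and without it from 7.43 to 8.18 with a median of 7.80. Of the 12 arrays with pomalidomide, 11 lay above the median of those without, yet the ranges overlapped. The average difference was 0.33 ± 0.08, a 1.26-fold higher level (adjusted p = 0.0208 by limma). For pomalidomide alone it was 0.11, with Pomalidomide arrays at 8.23, 8.18 and 7.73 and Control arrays, at 7.54, 8.09 and 8.18, over nearly the same range. It was 0.02 without Pomalidomide replicate 1, 0.04 without replicate 2 and 0.27 without replicate 3. Beside filanesib and beside both drugs it was 0.37 and 0.49, and there the groups did not overlap: the triple combination had 8.17, 8.13 and 8.19 against 7.88, 7.71 and 7.43 in Filanesib-Dexamethasone. Beside dexamethasone it was 0.36 with overlapping groups. None of the 4 backgrounds passed by itself, with adjusted p-values from 0.4291 to 0.8672.

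TRIM25 and TRIM5 came next and just missed the threshold. TRIM25, the ligase known for activating the RNA sensor RIGI, ran from 9.03 to 9.44 with pomalidomide (median 9.29) and from 8.85 to 9.36 without (median 9.10). Its average difference was 0.20 ± 0.06 (adjusted p = 0.0659 by limma), and only beside filanesib, at 0.34, did the groups not overlap. TRIM5, which binds the capsids of incoming retroviruses, ran from 4.15 to 4.63 with pomalidomide (median 4.41) and from 3.79 to 4.34 without (median 4.22). For TRIM5, 8 of 12 arrays with pomalidomide lay above the highest without, and the average difference was 0.22 ± 0.07 (adjusted p = 0.0681). TRIM25 passed the threshold in 9 of the 34 alternative analyses run for it, and TRIM5 in 6 of 33. Leaving out 1 array was enough to bring either below it, for example Pomalidomide replicate 3, which gave adjusted p-values of 0.0343 for TRIM25 and 0.0452 for TRIM5. Other alternatives went the other way, with adjusted p-values up to 0.1319 for TRIM25 and 0.1888 for TRIM5.

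Of the 9 interferon-linked genes listed, 8 were named in the probe table. The other, TRIM34, appeared only in the joint symbol TRIM6-TRIM34, which was kept apart from this list. At a mean log2 level of 2.92, TRIM6-TRIM34 differed by 0.04 ± 0.05 with pomalidomide (adjusted p = 0.7780 by limma). With pomalidomide 2 of the 8 rose, and all 8 had an average log2 difference above 0, as did 47.5% of all genes. Their median was 0.18, beside a median of -0.01 over all 14884 genes. The list was chosen with earlier results of these data known, so these shares and medians are a description. The members below the threshold were TRIM21, the cytosolic antibody receptor, at 0.17 ± 0.08 (adjusted p = 0.2946 by limma), and TRIM69, a microtubule-associated member, at 0.17 ± 0.07 (adjusted p = 0.1599). TRIM56, a ligase linked to STING signalling, was at 0.13 ± 0.08 (adjusted p = 0.4362), and TRIM14, an adaptor at mitochondria, at 0.06 ± 0.06 (adjusted p = 0.7393). The average effect is the mean of the differences in the 4 backgrounds, so a sign shared by them is no separate support for it. TRIM22, TRIM38, TRIM25, TRIM5, TRIM21 and TRIM69 had a difference above 0 in each of the 4 backgrounds. So did TRIM2, TRIM13 and TRIM66, which are outside this list, and no share over all genes is given for this pattern. TRIM56 did not: its log2 difference was -0.18 alone, 0.39 with filanesib, -0.06 with dexamethasone and 0.37 with the pair of them. The Pomalidomide arrays of TRIM56 lay far apart, at 6.52, 6.97 and 6.02. Its difference from Control turned with the array left out: it was -0.19 without replicate 1, -0.41 without replicate 2 and 0.06 without replicate 3. The average effect on TRIM56 passed (0.25, adjusted p = 0.0267) where the highest of these arrays, replicate 2, was the only Pomalidomide array kept, and was 0.24 (adjusted p = 0.2260) over the 3 backgrounds with another drug.

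**Figure D3:**
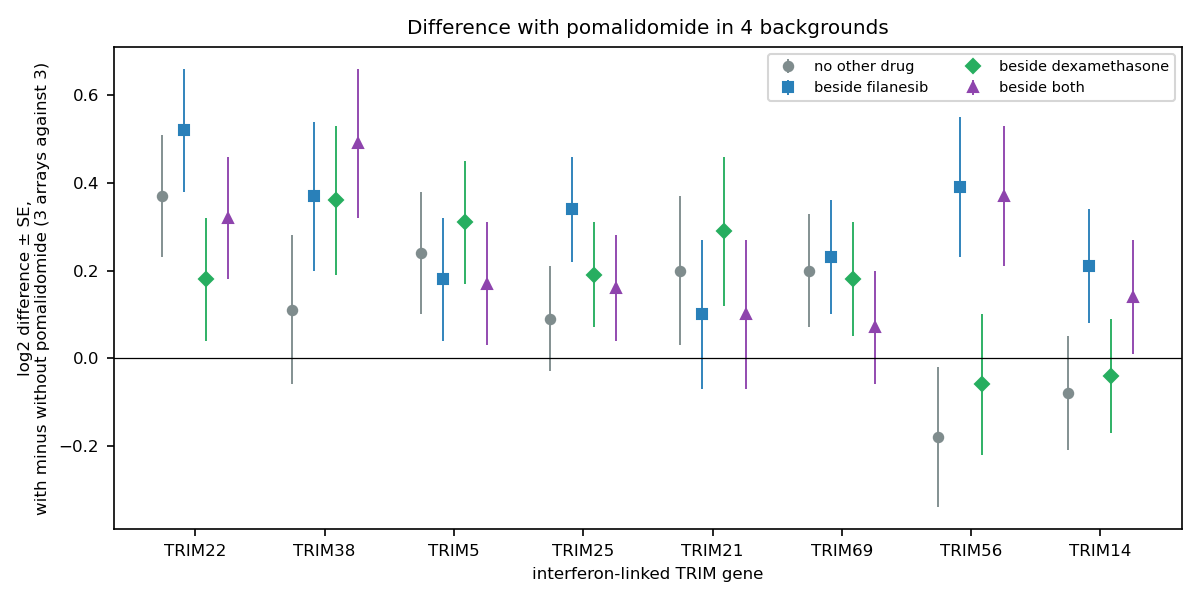
Pomalidomide effect (log2 difference, bars for the SE) on the 8 interferon-linked TRIM genes in each of 4 backgrounds: no other drug, filanesib, dexamethasone, and the pair of these. TRIM22 lies between 0.18 and 0.52 and TRIM38 between 0.11 and 0.49, while TRIM56 is below 0 in the backgrounds without filanesib (-0.18 and -0.06).

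Dexamethasone moved no TRIM gene past the threshold (0 of 61 in the average effect, beside 0.0134% of all genes), and at an unadjusted p under 0.05 there were 5 (8.20%, beside 7.68%). Within the interferon-linked genes 2 of 8 differences were above 0 and the median was -0.10. TRIM69 had the smallest unadjusted p of the family with dexamethasone, at -0.19 ± 0.07 (adjusted p = 0.5294 by limma): 1 of 12 arrays with dexamethasone lay above the median of those without. TRIM21 was at -0.19 ± 0.08 (adjusted p = 0.6318). With filanesib the interferon-linked genes had a median of 0.05, and the smallest p in this list was that of TRIM14, at 0.14 ± 0.06 (adjusted p = 0.3843).

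Genes outside the family give the setting for TRIM22 and TRIM38. Of 6 proteins with the TRIM domain plan but other symbols, 1 rose with pomalidomide: PML, the interferon-induced organiser of nuclear bodies, by 0.32 ± 0.08 (adjusted p = 0.0279 by limma). Among genes of interferon signalling, 4 of 10 measured rose and none fell. They were IRF9, the DNA-binding part of the complex that interferon activates, at 0.50 ± 0.08, IRF7 at 0.55 ± 0.11, USP18 at 0.61 ± 0.13 and IFNGR1 at 0.27 ± 0.07, with adjusted p-values of 5.00e-04, 0.0026, 0.0063 and 0.0311. Among sensors of RNA and DNA, 3 of 8 measured rose and none fell. RIGI, the partner of TRIM25, was 0.87 ± 0.13 higher, IFIH1, the partner of TRIM65, was 0.46 ± 0.07 higher, and STING1 was 1.14 ± 0.15 higher (adjusted p = 2.09e-04, 2.09e-04 and 7.81e-05). Of 7 ubiquitin-conjugating enzymes measured that TRIM ligases can use, none passed. UBE2L6, itself interferon-induced, was at 0.23 ± 0.08 (adjusted p = 0.1005).

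Across the 24 arrays the genes outside the family that followed TRIM22 most closely were IFI44L (Pearson r = 0.85), IFI44 (0.84), LAMP3 (0.84), SLFN5 (0.82), HERC6 (0.82), IFITM1 (0.81), C2 (0.80) and XAF1 (0.79), most of them known as interferon-induced. Within the family the closest were TRIM69 (r = 0.51), TRIM38 (0.50) and TRIM5 (0.49). With the group means removed, r was -0.03 for TRIM69, -0.02 for TRIM38 and 0.11 for TRIM5. For the named genes outside the family it was then between 0.31 (XAF1) and 0.62 (IFI44). These genes were picked for their r over the same 24 arrays, which share 8 group means, so the correlations are a description. 

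Markers of other cells the tumours could hold were read beside these results. Of 4 macrophage markers measured, CD68 rose with pomalidomide, by 0.99 ± 0.09 (adjusted p = 4.31e-07 by limma), and the other 3 did not pass. The mean log2 level of the 4 ran from 4.91 to 5.24 on arrays with pomalidomide and from 4.74 to 5.05 without. The means of the 4 single markers ran from 2.95 to 9.49, with CD14 at 3.07 and CD163 at 2.95. Endothelial markers (3 measured) ran from 3.29 to 3.64 with pomalidomide and from 3.22 to 3.88 without, and T cell markers (2 measured) from 4.29 to 4.68 and from 4.42 to 4.86. The granulocyte list (3 measured), the fibroblast gene DCN and the muscle gene DES gave no call with pomalidomide. The probes are named for human genes, so how well these values show mouse cells of the tumours is not known. The part of other cells in the TRIM22 and TRIM38 results was not tested.

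With filanesib no TRIM gene passed the threshold (0 of 61, beside 1.40% of all genes), and 10 TRIM genes (16.4%) had an unadjusted p under 0.05 in limma, beside 11.7% of all genes. The nearest were TRIM59, TRIM37 and TRIM65. TRIM59, a ligase anchored in the endoplasmic reticulum membrane, ran from 5.45 to 5.75 with filanesib (median 5.63) and from 4.89 to 5.66 without (median 5.45). Its average difference was 0.23 ± 0.06 (adjusted p = 0.0836), and 11 of 12 arrays with filanesib lay above the median of those without. TRIM59 passed without Dexamethasone replicate 3 (adjusted p = 0.0270) and without Pomalidomide replicate 1 (adjusted p = 0.0387), so the call turns on single arrays. In other alternatives its adjusted p was as high as 0.1912. TRIM37, which limits centriole assembly, had the larger difference, 0.27 ± 0.09 (adjusted p = 0.1630). It ran from 6.96 to 7.51 with filanesib (median 7.18) and from 6.34 to 7.26 without (median 7.02), again with 11 of 12 arrays above that median.

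TRIM37 was above 0 in each of the 4 backgrounds of filanesib, from 0.08 to 0.50. So were TRIM15 and TRIM69, and no share over all genes is given for this pattern. For TRIM37 the triple combination lay wholly above Pomalidomide-Dexamethasone, by 0.50 ± 0.17 (adjusted p = 0.4500 by limma). In that comparison no TRIM gene passed, beside 0.00672% of all genes, 4 had an unadjusted p under 0.05 (6.56%, beside 7.29%), and 7 of 61 did not overlap between the groups, beside 15.8% of all genes. Of the other cell division members, TRIM36, a microtubule-binding ligase, differed by -0.03 ± 0.05 with filanesib and TRIM8 by 0.00 ± 0.07. MID1, a microtubule-bound TRIM protein with another symbol, rose with filanesib by 0.29 ± 0.07 (adjusted p = 0.0389).

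The chromatin cofactors of the TIF1 group did not pass in any average effect. TRIM28, the corepressor that KRAB zinc finger proteins recruit, differed by -0.10 ± 0.06 with pomalidomide and 0.13 ± 0.06 with filanesib (adjusted p = 0.4033 for the latter). TRIM24 was at -0.04 and TRIM33 at 0.04 with pomalidomide. TRIM66, a testis-expressed relative, was at 0.23 ± 0.09 (adjusted p = 0.1490 by limma) and had a difference above 0 in each background, from 0.07 to 0.46. Beside filanesib, where it was 0.46, the Filanesib arrays of TRIM66 lay far apart, at 4.28, 5.30 and 4.71. Without Filanesib replicate 2 the average effect on TRIM66 passed, at 0.29 (adjusted p = 0.0136). In other alternatives its adjusted p was as high as 0.3383. Of 7 partners of TRIM28 measured, none passed with pomalidomide, and 1 did with filanesib. CBX5, which encodes a heterochromatin protein, rose with filanesib by 0.29 ± 0.07 (adjusted p = 0.0229).

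In Pomalidomide alone against Control, 1 TRIM gene passed, beside 1.98% of all genes, and 12 of 61 TRIM genes (19.7%) did not overlap between the groups, beside 15.6% of all genes. Of these 12, 8 were lower and 4 were higher, beside 9.06% and 6.57% of all genes. At an unadjusted p under 0.05 there were 14 TRIM genes (23.0%, beside 16.5%). The gene that passed was TRIM32, a ligase with NHL repeats that is mutated in a limb-girdle muscular dystrophy. Its log2 values were 5.0, 5.02 and 5.33 in Control and 3.86, 4.53 and 4.72 in Pomalidomide, so the groups did not overlap. The difference was -0.74 ± 0.20, with an adjusted p of 0.0498 by limma, at the edge of the threshold. The call was lost in 26 of 33 alternative analyses, 20 of them the omission of a single array, with adjusted p-values between 0.0291 and 0.4909 over the alternatives. In most of these the difference of TRIM32 stayed at -0.74 while its p crossed the threshold. Leaving out Pomalidomide replicate 3, the lowest array, moved it to -0.49 (adjusted p = 0.1944), and leaving out replicate 1 or 2 gave -0.92 or -0.82, both past the threshold. Beside the other drugs the pomalidomide difference of TRIM32 was -0.01 (filanesib), 0.01 (dexamethasone) and -0.02 (both). Among arrays without dexamethasone, the effect of pomalidomide beside filanesib and its effect alone were 0.74 ± 0.28 apart (adjusted p = 0.3397), and 0.48 to 0.91 apart with each Pomalidomide array left out in turn. TRIM32 was also wholly below Control in Filanesib (-0.29), Filanesib-Pomalidomide (-0.30) and the triple combination (-0.48), and none of these passed.

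TRIM28 and TRIM65 had the next smallest p-values in that comparison. TRIM65, the ligase that activates the RNA sensor IFIH1, had log2 values of 6.64, 6.48 and 6.56 in Control and 5.81, 6.44 and 5.77 in Pomalidomide, all below Control. The difference was -0.56 ± 0.16 (adjusted p = 0.0644 by limma). It depended on which array was in: it was -0.46 without Pomalidomide replicate 1 (adjusted p = 0.1573), -0.77 without replicate 2 (adjusted p = 0.0040) and -0.44 without replicate 3 (adjusted p = 0.1930). Beside filanesib plus dexamethasone TRIM65 was again lower, with 6.13, 6.32 and 6.40 in the triple combination against 6.84, 6.79 and 6.74, a difference of -0.51 ± 0.16 (adjusted p = 0.3690). Over all arrays its pomalidomide effect was -0.25 ± 0.08 (adjusted p = 0.0723) and its filanesib effect 0.22 ± 0.08 (adjusted p = 0.2162). The former passed without Pomalidomide replicate 2 (adjusted p = 0.0079) or Filanesib-Pomalidomide replicate 2 (adjusted p = 0.0357), and the latter without Pomalidomide replicate 2 (adjusted p = 0.0300). The former was smaller, at -0.14 (adjusted p = 0.5450), over the 3 backgrounds with another drug, and the latter was 0.14 under array weights (adjusted p = 0.3823). TRIM28 had 8.54, 9.02 and 8.78 in Pomalidomide against 9.27, 9.01 and 9.32 in Control, an overlap, with a difference of -0.42 ± 0.12 (adjusted p = 0.0642). For TRIM28 this was -0.30 without Pomalidomide replicate 1, -0.54 (adjusted p = 0.0111) without replicate 2 and -0.42 without replicate 3.

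Adding pomalidomide to filanesib lowered TRIM16, a member that helps clear damaged lysosomes and protein aggregates. It was the single TRIM gene called in that comparison (1 of 61, beside 0.249% of all genes), and 8 had an unadjusted p under 0.05 (13.1%, beside 10.7%). The signal of TRIM16 was low, with a mean of 4.42 over all arrays. TRIM16 had log2 values of 3.65, 3.75 and 4.11 in Filanesib-Pomalidomide against 4.48, 4.62 and 4.88 in Filanesib. In Control it had 4.36, 4.46 and 4.83, in Pomalidomide 4.54, 4.55 and 4.68, and in the triple combination 4.40, 4.43 and 4.61. Filanesib-Pomalidomide thus lay wholly below each of these groups, and also below Dexamethasone (4.14 to 4.67) and Filanesib-Dexamethasone (4.36 to 4.56). Its values overlapped with those of Pomalidomide-Dexamethasone, which ran from 4.02 to 4.66. The difference of Filanesib-Pomalidomide from Filanesib was -0.82 ± 0.17 (adjusted p = 0.0377 by limma) and from Control -0.71 ± 0.17 (adjusted p = 0.0933).

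The TRIM16 call was kept in 24 of 33 alternatives, with adjusted p-values from 0.0147 to 0.2117 and differences from -0.96 to -0.71. It was lost without Filanesib replicate 1 (0.1733), 2 (0.0969) or 3 (0.0834). Omitting Filanesib-Dexamethasone replicate 1 (0.0513) or 2 (0.0502), or Filanesib-Pomalidomide replicate 1 (0.2117) or 2 (0.0993), lost it too. So did testing every probe set (0.0730) or only the 2 groups compared (0.0578). Each figure in brackets is an adjusted p from limma. Whether the pomalidomide effect on TRIM16 differed with filanesib was tested directly, in the arrays without dexamethasone: -0.86 ± 0.24 (adjusted p = 0.2575), and -0.89 to -0.81 with each Pomalidomide array left out in turn. Beside dexamethasone the same difference was -0.07 ± 0.24. This split by dexamethasone was chosen with the data in view.

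**Figure D4:**
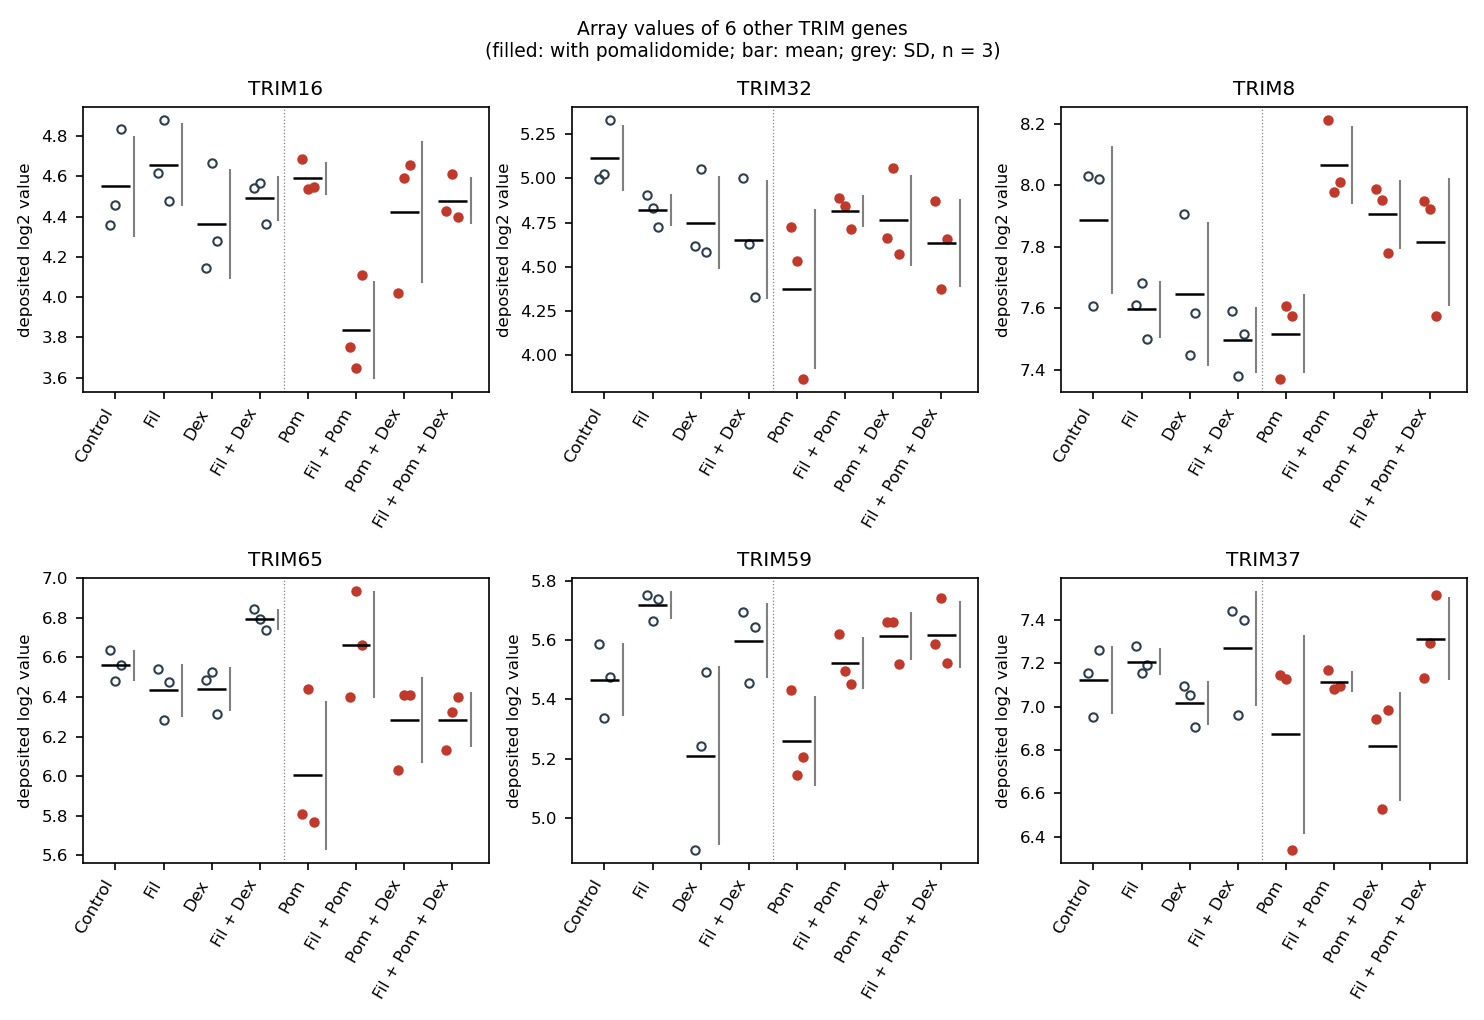
Log2 values of TRIM16, TRIM32, TRIM8, TRIM65, TRIM59 and TRIM37 on each of the 24 arrays, by group, with filled points for groups given pomalidomide, a bar at the mean and grey lines for the SD (n = 3). TRIM16 is lowest in Filanesib-Pomalidomide (3.65 to 4.11), TRIM32 in Pomalidomide (3.86 to 4.72), and TRIM8 is highest in Filanesib-Pomalidomide (7.98 to 8.21).

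TRIM8, a ligase that acts in p53, NF-kappa-B and spindle regulation, was high in the group where TRIM16 was low. It did not pass in the average effect of any drug over 4 backgrounds. It had log2 values of 7.61, 8.02 and 8.03 in Control, 7.50, 7.61 and 7.68 in Filanesib, 7.37, 7.57 and 7.61 in Pomalidomide, and 7.98, 8.01 and 8.21 in Filanesib-Pomalidomide. Each drug alone thus had a lower mean than Control, and the pair of drugs lay wholly above either alone. The pomalidomide effect was -0.37 ± 0.14 without filanesib (adjusted p = 0.1634 by limma) and 0.47 ± 0.14 beside it (adjusted p = 0.1577). The former was -0.42 to -0.30 with each Pomalidomide array left out in turn. Over all 24 arrays the pomalidomide effect on TRIM8 was 0.45 ± 0.14 larger with filanesib than without (adjusted p = 0.6118). TRIM56 had a similar size of difference, 0.50 ± 0.16 (adjusted p = 0.6118). No TRIM gene and no other gene passed in any of the 3 tests of whether one drug's effect differs with another. At an unadjusted p under 0.05 there were 7 TRIM genes for pomalidomide with filanesib (11.5%, beside 6.69% of all genes), 2 for pomalidomide with dexamethasone (3.28%, beside 5.52%) and 4 for filanesib with dexamethasone (6.56%, beside 4.34%).

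In the other comparisons of groups no TRIM gene passed. Against Control these were Filanesib and Filanesib-Dexamethasone (0 genes of any kind), Dexamethasone (0.00672% of all genes), Filanesib-Pomalidomide (0.141%), Pomalidomide-Dexamethasone (0.161%) and the triple combination (0.255%). Pomalidomide added to Dexamethasone and to Filanesib-Dexamethasone called 0.0269% of all genes each. At an unadjusted p under 0.05 in limma, and with the share of all genes in brackets, TRIM genes against Control numbered 2 in Filanesib (3.94%), 3 in Dexamethasone (3.90%), 7 in Filanesib-Dexamethasone (6.03%), 5 in Filanesib-Pomalidomide (7.60%), 6 in Pomalidomide-Dexamethasone (8.30%) and 6 in the triple combination (10.6%). They numbered 4 (5.54%) and 5 (6.33%) when pomalidomide was added to Dexamethasone and to Filanesib-Dexamethasone. Filanesib-Dexamethasone was thus the group with the largest count among these, at 7 of 61 (11.5%). TRIM genes that did not overlap with the same Control arrays numbered 6 in Filanesib (10.8% of all genes), 8 in Dexamethasone (9.99%), 8 in Filanesib-Dexamethasone (13.4%), 12 in Filanesib-Pomalidomide (15.6%), 8 in Pomalidomide-Dexamethasone (15.4%) and 11 in the triple combination (18.9%). They numbered 3 (11.2%) and 4 (13.5%) when pomalidomide was added to Dexamethasone and to Filanesib-Dexamethasone. For pomalidomide added to Filanesib, 16 of 61 TRIM genes did not overlap (26.2%, beside 19.2% of all genes), of which 11 were higher (beside 9.39%), TRIM22, TRIM25, TRIM38 and TRIM56 among them.

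The muscle members gave no call. TRIM54 and TRIM55, RING finger proteins of the sarcomere, differed by 0.14 ± 0.07 (adjusted p = 0.6507 by limma) and 0.05 ± 0.06 with dexamethasone. TRIM63, the atrophy ligase that glucocorticoids induce in muscle, was not named in the probe table used here. FBXO32, the atrophy ligase usually measured beside it, differed by 0.18 ± 0.11 (adjusted p = 0.7118). TRIM72, a membrane repair protein of muscle, was at -0.17 ± 0.06 with filanesib (adjusted p = 0.2368 by limma). Its difference was below 0 in each of the 4 backgrounds, from -0.21 to -0.14, as were those of TRIM29, TRIM46 and TRIM49, which are not muscle members.

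Of the NHL repeat members other than TRIM32, TRIM2, a ligase of neurons, was at 0.17 ± 0.08 with pomalidomide (adjusted p = 0.2665 by limma) and TRIM3 at 0.08. TRIM13, an endoplasmic reticulum ligase lost with a deletion often seen in blood cancers, was at 0.14 ± 0.07 (adjusted p = 0.3015). The remaining 39 TRIM genes gave no call in any average effect. With pomalidomide 18 of the 39 had a difference above 0, with a median of -0.01 and a range of -0.25 to 0.14. Near-identical relatives in this group, such as TRIM43 and TRIM43B, TRIM49 and TRIM49B, and TRIM64, TRIM64B and TRIM64C, can share signal, so their separate values are uncertain. For 5 TRIM genes the array holds several probe sets. Their pomalidomide differences lay close together, from 0.09 to 0.14 for TRIM15, from -0.10 to -0.05 for TRIM27 and from -0.12 to -0.01 for TRIM40.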

How the data were processed

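Tumour RNA was measured on 24 arrays, 3 in each of 8 groups taken from the labels. The deposited values are log2 levels, 1 for each probe set. Per the submitters' processing notes, the authors used RMA, which corrects background, quantile-normalises and summarises probes, and ran Affymetrix Expression Console; versions are not given in the sources used here. Quantile normalisation hides a change shared by most genes. Of 53617 probe sets, 16098 carried 1 symbol and 37519 none; the latter were left out. The probe set with the highest mean stood for each of 14884 genes.

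The TRIM genes and all gene lists were chosen with earlier results of these data known. limma 3.58.1 (R 4.3.3) fitted 1 mean per group to all arrays (16 residual degrees of freedom, 23.1 after moderation). P-values are two-sided, adjusted over all 14884 genes by the Benjamini-Hochberg method, with a threshold of 0.05. An average effect is the mean of a drug's differences over the 4 backgrounds of the other drugs. Differences are log2 ± SE; the number of arrays limits precision, with a median SE of 0.07 for an average effect and 0.14 between a pair of groups. Named TRIM genes were TRIM22, those past the threshold in a comparison, those with an adjusted p up to 0.1 in an average effect, for each role list the highest level and the smallest p per drug, and those of highest and lowest mean; other names were chosen after their values were seen. In simulated data, 92 of 100 genes changed by 0.5 and 99 of 100 changed by 1 were recovered for the average effect of pomalidomide (12 false among 203 calls), and 39 and 94 for Pomalidomide against Control (8 false among 141). Each simulated gene had the same spread in every group, so the wider spread of the Pomalidomide arrays was not represented. Changes smaller than 0.5 were not simulated.

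Same-numbered arrays of different groups did not deviate together (84 pairs, r from -0.32 to 0.31, 17 over 0.1), so numbers were not taken as pairs. Alternatives were another normalisation or centring, a filter on low levels, array weights, another prior, the replicate block, other treatments of probe sets, omission of each array, the 2 groups alone, and, chosen after seeing the data, omission of Pomalidomide replicates 1 and 3 (which leaves 1 array there) and an average over the 3 backgrounds with another drug.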

Additional observations from a re-analysis of the deposited data

Results flagged for a closer look

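In 5 of 61 TRIM genes (8.20%) the arrays with a drug lay wholly above those without it in one background and wholly below in another, as they did in 6.79% of all genes. The difference between the backgrounds was tested in limma, and none of the 7 tests passed the threshold. Single outlying arrays were not looked for within groups of 3.

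TRIM8 differed by -0.37 with pomalidomide alone and by 0.47 beside filanesib, 0.84 ± 0.19 apart (unadjusted p = 2.33e-04, adjusted p = 0.1652). Left out in turn, Pomalidomide replicates 1 and 3 gave 0.77 and 0.87 and replicate 2 gave 0.89, which passed (adjusted p = 0.0410). With dexamethasone TRIM8 differed by 0.39 beside pomalidomide and by -0.25 beside filanesib plus pomalidomide (0.64 ± 0.19 apart, adjusted p = 0.4723, and 0.57 to 0.69 with each Pomalidomide array left out). TRIM47, a ligase of the cytoplasm, differed by -0.38 with pomalidomide alone and by 0.20 beside filanesib (0.58 ± 0.18 apart, adjusted p = 0.2610, and 0.52 to 0.67 with each Pomalidomide array left out). For TRIM47 the -0.38 was -0.34, -0.47 and -0.33 without replicates 1, 2 and 3, and the value without replicate 2 passed (adjusted p = 0.0459). With dexamethasone TRIM47 differed by 0.35 beside pomalidomide and by -0.15 beside filanesib plus pomalidomide (0.50 ± 0.18 apart, adjusted p = 0.5354, and 0.45 to 0.59 likewise). These TRIM8 and TRIM47 comparisons share the Pomalidomide arrays, which had the widest spread.

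TRIM59 differed by -0.20 with pomalidomide beside filanesib and by 0.40 beside dexamethasone (0.60 ± 0.18 apart, adjusted p = 0.9996). TRIM9, a ligase of neurons, differed by 0.27 with filanesib alone and by -0.33 beside pomalidomide plus dexamethasone (0.60 ± 0.19 apart, adjusted p = 0.9982). TRIM17 differed by -0.19 with dexamethasone alone and by 0.19 beside filanesib plus pomalidomide (0.38 ± 0.25 apart, adjusted p = 0.9997).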

How the results depend on the processing

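TRIM22 kept its call for the average effect of pomalidomide in all 33 alternatives run for it (0.32 to 0.37, adjusted p 0.0019 to 0.0194 in limma) and TRIM38 in all 34 (0.29 to 0.41, 0.0028 to 0.0493). Genes with means under 5, TRIM22, TRIM5, TRIM16 and TRIM32 among them, were not tested under the filter on low levels. No named value that was followed through these alternatives reversed. The difference of TRIM56 between Pomalidomide and Control was not among them, and its sign turned with the array left out. Of the counts of TRIM genes called, the average effect of pomalidomide (2) became 4 under array weights, 4 when Pomalidomide replicates 1 and 3 were dropped (which leaves 1 Pomalidomide array), 3 over the backgrounds with another drug, and 2 to 4 when single arrays were left out. The average effect of filanesib (0) became 1 with array weights, and 0 to 1 with single arrays left out. Pomalidomide against Control (1) became 0 under further quantile normalisation, median centring, array weights, every probe set or the 2 groups alone. It became 2 (TRIM28 and TRIM65) with genes of mean at least 5, a filter that removes TRIM32, the gene called before. With single arrays left out this count ran from 0 to 5, the highest without Pomalidomide replicate 2. Without Pomalidomide replicates 1 and 3 the difference of TRIM32 was -0.58. Filanesib-Pomalidomide against Control (0) became 1 after median centring, 2 under array weights, 1 when Pomalidomide replicates 1 and 3 were dropped, and 0 to 1 with single arrays left out. Filanesib-Pomalidomide against Filanesib (1) became 0 with every probe set or the 2 groups alone, 0 with the filter on low levels, which removes TRIM16, and 3 with array weights, and 0 to 1 with single arrays left out. The counts of 0 for the average effect of dexamethasone, the 3 drug-by-drug tests and the remaining comparisons of groups stayed 0 in all their alternatives. With the replicate number as a block, which does not pair these arrays, the counts were 2, 0 and 0 for the average effects of pomalidomide, filanesib and dexamethasone, 1 for Pomalidomide against Control and 1 for Filanesib-Pomalidomide against Filanesib. Signals near background, 3 arrays a group and unnamed probe sets limit what can be seen for the dim members.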
